A study of Mus musculus with 96 samples.

Results

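Transcripts of 10 collagen genes were followed in single cells of C10, an established mouse lung line that the labels call alveolar type II epithelial. The genes were taken by name from the 40202 genes counted in every library: Col1a1, Col1a2, Col3a1, Col5a1, Col5a2, Col4a1, Col4a2, Col6a1, Col6a2 and Col12a1. The series holds 96 libraries of 1 cell each, 48 from untreated C10 cells (control) and 48 from C10 cells given RO-3306 at a labelled 10 nM for 36 h. RO-3306 is sold as an inhibitor of CDK1, the kinase that drives entry into mitosis, and both groups were grown in the same medium. Cells were dispensed singly, and their cDNA was made with SMART-seq v4, a full-length method. The comparison asks how collagen transcripts differed between treated and untreated cells. The labels name no separate cultures, so each treatment was 1 sample of many cells, no difference has a replicate check and no test was made.

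Cells were kept when they had 50000 or more counts and 1000 or more genes, which left 29 control and 37 RO-3306 cells. Their total counts ran from 59979 to 6457215 in control and from 295005 to 5321880 in RO-3306. RO-3306 cells had higher medians than control cells of total counts (2234309 against 1753427), of genes with a count (6951 against 5177) and of the mitochondrial share (4.42% against 3.40%). The part of these in the collagen results was not tested beyond the alternatives given. Each sample title holds 1 of the letters A, B, C and D, whose meaning is not given. The 4 lettered sets held 10, 8, 6 and 5 control cells and 10, 10, 11 and 6 RO-3306 cells, and they served only to see whether a difference kept its sign. Of 10 alveolar type II markers, 5 had no count in any kept cell, among them the surfactant genes Sftpa1, Sftpc and Sftpd. The fibroblast list summed to 5133 CPM (counts scaled to a total of 1000000) for control and to 3302 CPM for RO-3306, with Thy1, Lum and Tcf21 at 0. On that list cells ran from 2047 to 9820 CPM (control) with a median of 4798, and from 671 to 10539 CPM (RO-3306) with a median of 3025. The highest RO-3306 value was that of cell A11, described below. This list holds the matrix gene Fn1 (fibronectin), Vim and S100a4 among others. It moved in the same direction as collagen, and its part in the collagen results was not tested. The alveolar type II list summed to 23.5 and 27.7 CPM, epithelial markers to 1.78 and 0.978, macrophage and blood markers to 57.6 and 61.2, endothelial markers to 0.619 and 0.311, and smooth muscle markers to 1056 and 837 CPM.

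RO-3306 cell A11 (letter A, number 11 in its title) stood apart from the other RO-3306 cells. It had 515218 counts in 3178 genes, with a mitochondrial share of 18.1%. Other RO-3306 cells were more extreme in these measures, B3 having a mitochondrial share of 56.0% and C11 having 2159 genes. Leaving out cells above 20% mitochondrial, which removed B3 but not A11, gave a log2 ratio of summed collagen of -2.23, as with all kept cells. The summed collagen level of A11 was 10610 CPM, while the next highest RO-3306 cell had 2192 CPM. In A11 the nuclear RNA Malat1 was at 84415 CPM, against at most 840 CPM in any other RO-3306 cell and 12800 CPM in the highest control cell. Fibronectin (Fn1) was at 6624 CPM in A11, at most 876 CPM in the other RO-3306 cells and at most 3526 CPM in control cells. A11 held 14.8% of the collagen counts of its group and 0.555% of its total counts, and the main values that it moved are given with and without it. Control cell B4, with the most counts (6457215) and genes (10828) of any kept cell, had the highest control levels of Malat1 and Fn1 and 4144 CPM of collagen. B4 held 21.8% of the control collagen counts and 9.78% of all control counts. Without it the control collagen sum was 1614 CPM, and the log2 ratio of the summed collagen level was -2.02, or -2.25 without both cells.

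Collagens are the main structural proteins of the extracellular matrix, and each molecule is a triple helix of 3 chains. Types I and III build the thick interstitial fibrils of the lung, type V sits inside those fibrils and limits their width, type IV forms the meshwork of basement membranes, type VI forms beaded microfibrils around cells, and type XII coats fibril surfaces. Chains are modified in the endoplasmic reticulum, held by the chaperone Hsp47 (Serpinh1), trimmed outside the cell and cross-linked by lysyl oxidases.

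The sequence just upstream of the start site is shown for 4 of the genes described below. They are Col1a2, the chain of type I that was nearly absent, Col3a1, one of the 2 most abundant members, and Col6a1 and Col6a2. The last 2 are chains of type VI, and Col6a2 had the lowest ratio of the 10 in the summed counts. RefSeq windows on build GRCm38.p6 were matched for 7 of the 10 genes, and each line gives the 250 bases before the start, 5′ to 3′ on the gene's strand. Capitals mark matches, on either strand, to 4 motifs that were searched: CCAAT (the NF-Y box), GGGCGG (the GC box bound by Sp factors), TATAAA (the TATA box) and CAGGTG (an E-box). The windows are chr6:4505368-4505617 (plus strand) for Col1a2, chr1:45311288-45311537 (plus strand) for Col3a1, chr10:76726045-76726294 (minus strand) for Col6a1 and chr10:76623631-76623880 (minus strand, the outer of 2 windows) for Col6a2.
Col1a2: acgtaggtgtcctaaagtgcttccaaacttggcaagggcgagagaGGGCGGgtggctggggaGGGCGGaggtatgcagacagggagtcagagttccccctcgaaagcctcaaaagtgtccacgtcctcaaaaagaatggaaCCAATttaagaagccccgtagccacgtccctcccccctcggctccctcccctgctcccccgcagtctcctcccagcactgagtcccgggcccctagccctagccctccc
Col3a1: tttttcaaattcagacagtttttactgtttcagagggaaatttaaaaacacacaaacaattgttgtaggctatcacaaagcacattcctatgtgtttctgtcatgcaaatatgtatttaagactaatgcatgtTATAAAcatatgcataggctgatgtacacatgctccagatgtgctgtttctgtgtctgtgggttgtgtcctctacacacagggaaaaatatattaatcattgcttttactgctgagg
Col6a1: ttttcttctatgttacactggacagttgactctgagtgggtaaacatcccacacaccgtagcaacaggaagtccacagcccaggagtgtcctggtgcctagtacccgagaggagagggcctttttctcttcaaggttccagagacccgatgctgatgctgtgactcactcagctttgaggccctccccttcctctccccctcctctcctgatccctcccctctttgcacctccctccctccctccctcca
Col6a2: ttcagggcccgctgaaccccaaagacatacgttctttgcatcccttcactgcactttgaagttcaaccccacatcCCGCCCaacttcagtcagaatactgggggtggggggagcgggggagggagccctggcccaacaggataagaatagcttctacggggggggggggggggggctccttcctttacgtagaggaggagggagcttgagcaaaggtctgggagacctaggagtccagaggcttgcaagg

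The Col1a2 window held 1 CCAAT and 2 GGGCGG matches at a GC content of 62.0%, and the Col3a1 window held 1 TATAAA match at 35.2% GC. In the Col6a2 window there was 1 GGGCGG match at 59.2% GC, and the Col6a1 window held none of the 4 motifs at 56.0% GC. Among 32851 such windows of the mouse genome, 33.9% held CCAAT, 32.7% GGGCGG, 12.4% TATAAA and 17.2% CAGGTG. No motif of the 4 was present in every window shown, GGGCGG being in those of Col1a2 and Col6a2. A match describes letters only.

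Summed over the 10 genes, collagen took 1862 CPM of control counts (95% Poisson interval 1851 to 1872) and 397 CPM of RO-3306 counts (393 to 401), a level 4.69-fold lower (4.64 to 4.75). These intervals cover counting error only. Control cells ran from 283 CPM to 4332 CPM with a median of 1368 CPM. RO-3306 cells ran from 18.6 CPM to 10610 CPM with a median of 344 CPM. The groups overlapped, but 16 of the 37 RO-3306 cells lay below the lowest control cell, 3 lay above the control median, and 3 of the 29 control cells lay below the RO-3306 median. The difference had the same direction in all 4 lettered sets. Control sums were 1400, 2320, 1956 and 1704 CPM in sets A, B, C and D, and RO-3306 sums were 797, 274, 344 and 277 CPM. Set A had the smallest difference of the 4, with a log2 ratio of -0.81, while the others lay between -2.50 and -3.08. Without A11 the RO-3306 sum of set A was 500 CPM.

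**Figure D1:**
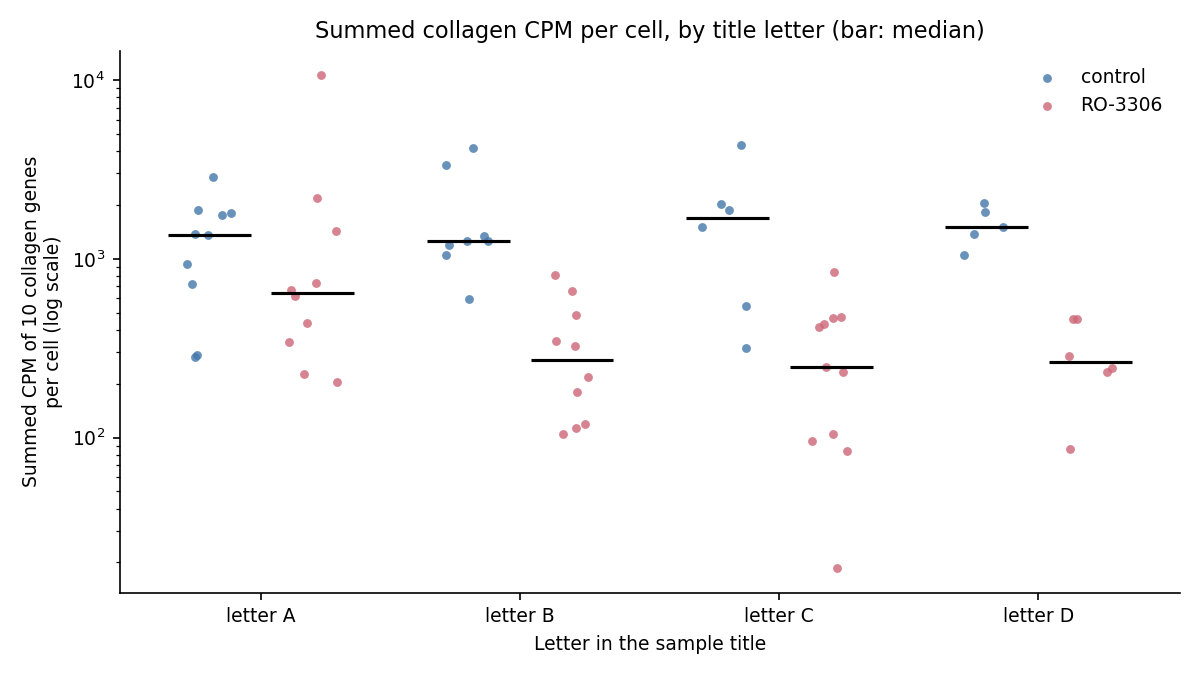
Summed CPM of the 10 collagen genes in each kept cell (log scale), by the letter in the sample title; points are cells and bars are medians. RO-3306 medians (644, 272, 248 and 265 CPM for A to D) lay below control medians (1366, 1260, 1697 and 1497 CPM) in every set, and A11 is the single point at 10610 CPM.

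How the cells were weighted changed the size of this difference. With every cell given the same weight, the mean was 1581 CPM for control and 703 CPM for RO-3306, which is 2.25-fold lower. Leaving A11 out brought the RO-3306 mean to 428 CPM, 3.70-fold lower than control. The medians over cells differed by 3.98-fold. The median control cell had counts of 5 of the 10 genes and the median RO-3306 cell of 6. In cells thinned to 639000 reads, both medians were 5, and the means were 5.12 and 4.88 genes.

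Col1a1 encodes the alpha 1 chain of type I collagen, the main fibrillar collagen (GRCm39 chr11:94827050-94843868). Control cells ran from 144 to 1988 CPM with a median of 601, and RO-3306 cells from 4.73 to 1177 CPM with a median of 104. All 66 kept cells had a count, 24 of the RO-3306 cells lay below the lowest control cell, and no control cell lay below the RO-3306 median. The summed level was 714 CPM (708 to 721) for control and 127 CPM (125 to 129) for RO-3306, which gives a log2 ratio of -2.48. It was lower in each lettered set, with log2 ratios of -1.42, -3.64, -2.48 and -2.98 for A to D, and the ratio was -1.89 with cells weighted equally. The counts were fractional in 54.5% of libraries, which means that some reads were also placed elsewhere in the genome.

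Col1a2 encodes the partner chain of type I collagen (chr6:4505618-4541543), and it was close to absent from the counts. Another annotated gene overlaps 6.28% of its span, where reads are by default assigned to neither gene, and the number lost was not tested. In control Col1a2 had a count in 2 of 29 cells, and 1 of these, A1 at 260 CPM, held 99.9% of the control counts. In RO-3306 it had a count in 11 of 37 cells, of which B11, at 212 CPM, held 64.0% of the counts. The summed levels were 14.8 CPM and 7.59 CPM, the medians over cells were 0 in both groups, and the ratio was below 0 in set A and above 0 in sets B and D. When the cells with at least 639000 reads were thinned to that depth, counts remained for 2 of 25 control and 9 of 34 RO-3306 cells (26.5%). At full depth the shares were 6.90% (exact binomial interval 0.846% to 22.8%) and 29.7% (15.9% to 47%). Such intervals treat cells as independent draws and cover no spread between cultures.

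Col3a1 encodes the single chain of type III collagen, which shares fibrils with type I (chr1:45350698-45388866). Its control cells ran from 0 to 1797 CPM with a median of 462, and its RO-3306 cells from 0 to 3316 CPM with a median of 32.7. The highest RO-3306 value was that of A11, the only RO-3306 cell above the control median, and the next was 449 CPM. Summed, it stood at 603 CPM (597 to 609) for control and at 83.6 CPM (81.8 to 85.5) for RO-3306, with a log2 ratio of -2.84. Across sets A to D the log2 ratios were -1.28, -3.66, -2.74 and -5.19. With equal weights the ratio was -1.58, and without A11 the summed and equal-weight ratios were -3.18 and -2.59. Counts were present in 89.7% of control and 78.4% of RO-3306 cells.

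**Figure D2:**
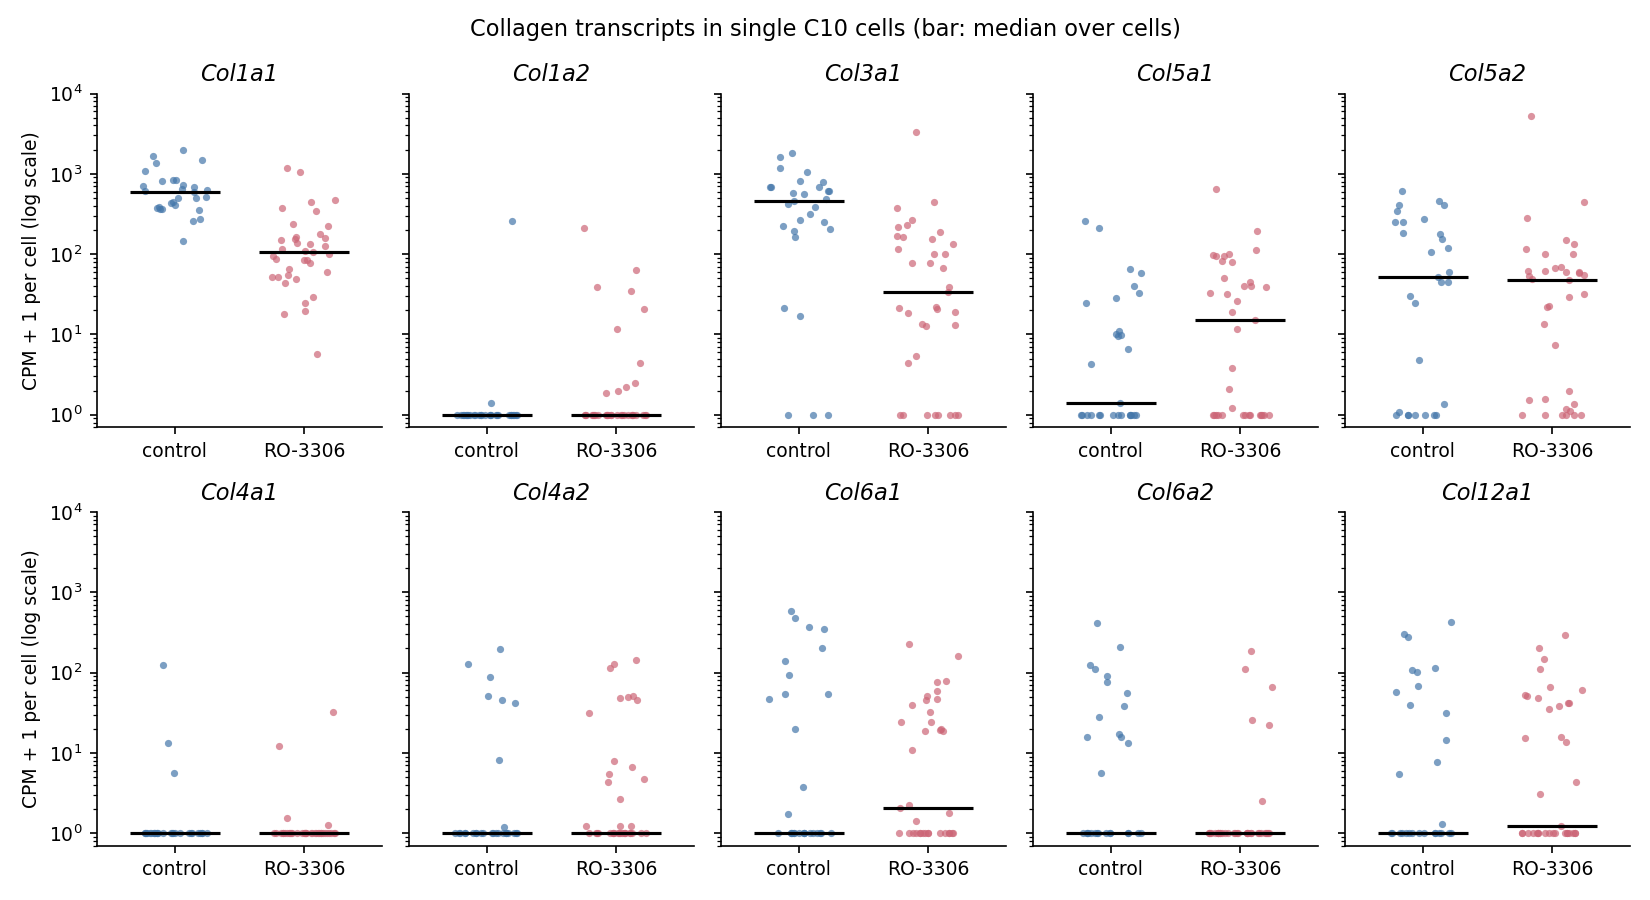
CPM plus 1 of each collagen gene in every kept cell (log scale), control at left and RO-3306 at right; points are cells, bars are medians, and points at 1 are cells with no count. Col1a1 and Col3a1 medians stand lower in RO-3306 (104 against 601 CPM and 32.7 against 462 CPM), whereas the medians of Col1a2, Col4a1, Col4a2 and Col6a2 are 0 in both groups.

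Type V collagen, which regulates fibril width, was counted through 2 chains. Col5a1 (chr2:27776393-27929522) ran from 0 to 255 CPM in control cells with a median of 0.399, and from 0 to 652 CPM in RO-3306 cells with a median of 14.1. The groups overlapped, and 22 of the 37 RO-3306 cells lay above the control median. Summed levels were 45.4 CPM and 34.6 CPM, a log2 ratio of -0.38, while equal weights gave 0.92. One control cell, B4, held 54.8% of the control counts of Col5a1, and without it the summed ratio was 0.58. Without A11 the equal-weight ratio was 0.34. Its sets A and D gave log2 ratios of 1.18 and 1.14, and sets B and C gave -1.03 and -0.85. The direction for Col5a1 thus depended on the set and on the weighting.

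Col5a2 (chr1:45413491-45542442), the second chain of type V, ran from 0 to 618 CPM in control cells with a median of 50.3. In RO-3306 cells it ran from 0 to 5202 CPM with a median of 46.1. The medians were close, and the top value was again A11, which held 41.8% of the RO-3306 counts, the next cell having 443 CPM. Summed levels were 198 CPM (195 to 202) and 69.1 CPM (67.4 to 70.8), a log2 ratio of -1.51. With equal weights the ratio was 0.51, and set A gave 0.67. Without A11 the summed ratio was -2.27, the equal-weight ratio -1.24 and the set A ratio -0.61, so that Col5a2 was then lower in all 4 sets and under both weightings.

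Type IV collagen, of basement membranes, was found at low levels, and Col4a1 was the least abundant of the 10 genes. Col4a1 (chr8:11248423-11362889) had a count in 3 of 29 control and 4 of 37 RO-3306 cells, with summed levels of 3.29 CPM and 1.86 CPM, and was below the 5 CPM required of a gene to be compared with all genes. Col4a2 (chr8:11362805-11499287), its partner, had a count in 8 and 17 cells, with highest values of 194 and 142 CPM and summed levels of 21.6 and 9.32 CPM. Thinned cells held it in 6 of 25 (control) and 12 of 34 (RO-3306). Its log2 ratio was -1.13 in the sums, -0.96 in the sums without B4 and -0.15 with equal weights. Sets A and B gave 1.21 and 0.39 while sets C and D gave -3.76 and -3.26. These genes lie head to head, and other annotated genes overlap 32.4% of the Col4a1 span and 27.3% of the Col4a2 span. By default the counting tool assigns reads in an overlap to neither gene, and how many were lost that way was not tested. An overlap also covers 9.70% of the Col5a1 span.

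Type VI collagen, which forms microfibrils near the cell surface, was counted through its alpha 1 and alpha 2 chains. Col6a1 (chr10:76544626-76561878) reached 591 CPM in control cells with a median of 0, and 225 CPM in RO-3306 cells with a median of 1.07. Counts were present for 13 of 29 control cells, or 44.8% (26.4% to 64.3%), and for 21 of 37 RO-3306 cells, or 56.8% (39.5% to 72.9%). Thinned, the numbers were 11 of 25 for control and 18 of 34 for RO-3306. The intervals overlapped, so which group had the larger share of cells with Col6a1 was not settled. Its summed levels were 95.9 CPM and 17.6 CPM, a log2 ratio of -2.38, and equal weights gave -1.66. Sets A, B and C gave -1.06, -3.15 and -3.29. In set D none of the 5 control cells had a count, which allows up to 0.404 CPM, against 7.85 CPM in RO-3306. That limit covers counting error over the pooled reads of these cells only, not the spread between cells.

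Col6a2 (chr10:76431590-76459464) was lower in RO-3306 both in level and in the share of cells with a count. Control cells reached 416 CPM and RO-3306 cells 187 CPM, and both medians were 0. A count was present in 14 of 29 control cells, or 48.3% (29.4% to 67.5%), and in 6 of 37 RO-3306 cells, or 16.2% (6.19% to 32%). Thinned, the numbers were 14 of 25 for control and 5 of 34 for RO-3306. Summed levels came to 77.1 CPM and 8.03 CPM, a log2 ratio of -3.11, with -1.81 under equal weights and -2.09 after thinning. It was -1.61, -2.79, -3.79 and -4.07 in sets A to D. In set D no RO-3306 cell had a count, which allows up to 0.136 CPM against 15.8 CPM in control, a limit that likewise covers counting error only. Cells B4 of control and B12 of RO-3306 held 52.8% and 56.8% of their group's Col6a2 counts, and without B4 the summed ratio was -2.19.

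Col12a1 encodes a collagen that binds the surface of type I fibrils (chr9:79506269-79628423). It ran from 0 to 426 CPM in control cells and from 0 to 296 CPM in RO-3306 cells, with medians of 0 and 0.235 and a count in 14 of 29 and 19 of 37 cells. Summed levels were 87.8 CPM and 37.8 CPM, with log2 ratios of -1.19 in the sums and -0.67 under equal weights. Cells B4 of control and D7 of RO-3306 held 31.1% and 37.4% of their group's Col12a1 counts, and without B4 the summed ratio was -0.81. In sets A, B and C the ratio was -1.16, -2.99 and -1.45. Set D went the other way, with 1 Col12a1 count among 5 control cells (0.135 CPM) and 1676 counts among 6 RO-3306 cells (76.0 CPM).

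**Figure D3:**
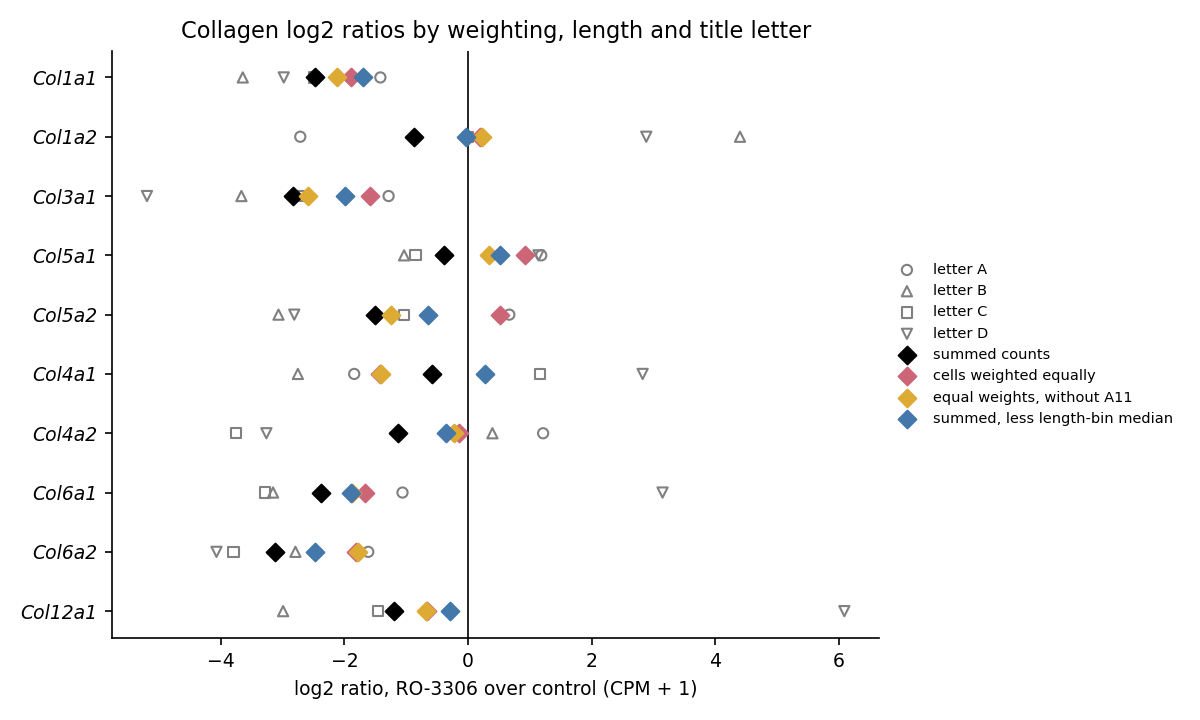
Log2 ratio of RO-3306 over control for each collagen gene, as CPM plus 1; diamonds show the summed counts, equal weighting of cells with and without A11, and the summed ratio less its length-bin median, and open symbols show the lettered sets. Col1a1, Col3a1 and Col6a2 stay left of 0 throughout, while each of the other 7 genes has at least 1 set at or right of 0.

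The 10 genes were then counted together. In the sums, 7 of them were at least 2-fold lower in RO-3306 and none was at least 2-fold higher. Without B4 the number lower was 6, with Col12a1 and Col4a2 no longer counted and Col1a2 (-1.02) added. Of the 9374 genes that averaged 5 CPM or more over the groups, 24.2% were at least 2-fold lower and 1141 genes were at least 2-fold higher. All collagen genes but Col4a1, 9 of the 10, reached that average. The median log2 ratio was -1.35 over the 10 genes, -1.51 over the 9 and -0.22 over the 9374 genes. With cells weighted equally 5 collagen genes were at least 2-fold lower, of which Col4a1 is outside the 9374 genes. The other 4 are to be read against 22.6% of all genes. The 3 genes that were lower in the sums, in every lettered set and with equal weights were Col1a1, Col3a1 and Col6a2, and 10.2% of all genes met the same condition. Ratios are relative to the total counts of a group. TMM and DESeq2 scaling raised them by up to 0.21 and 0.24 and left 5 genes at least 2-fold lower.

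Collagen mRNAs are long, and long mRNAs were lower in RO-3306 generally. The members' mRNAs run from 4100 nt (Col6a1) to 11511 nt (Col12a1), while the median over the genes compared was 3023 nt. Across genes, which are not independent replicates, Spearman's rho of the log2 ratio with mRNA length was -0.36 in the sums and -0.28 with equal weights. Among the 2756 genes with an mRNA in the members' length range, the median log2 ratio was -0.73 and 41% were at least 2-fold lower. The count-weighted mean mRNA length of a cell, as a geometric mean, had a median of 2098 nt over control cells and 1870 nt over RO-3306 cells. RO-3306 cell A11 stood apart at 3543 nt, the next highest RO-3306 cell having 2065 nt, and the highest control cell, D10, had 3044 nt. The part of the length difference between the groups in the collagen values was not tested beyond the subtraction that follows.

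After the median of genes in the same of 20 length bins was subtracted, 4 collagen genes remained at least 2-fold lower, against 15.1% of all genes with a known length. They were Col6a2 (-2.47), Col3a1 (-1.99), Col6a1 (-1.90) and Col1a1 (-1.70). The other 6 lay between -0.65 (Col5a2) and 0.51 (Col5a1). Without A11, Col5a2 was at -1.34 on this scale, and 5 genes were at least 2-fold lower. The 4 included the shortest mRNAs of the set, those of Col6a1 and Col6a2 (4653 nt), and over the 10 genes the log2 ratio had a Spearman's rho of 0.55 with mRNA length. This is opposite in sign to the relation across all genes, over only 10 points.

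**Figure D4:**
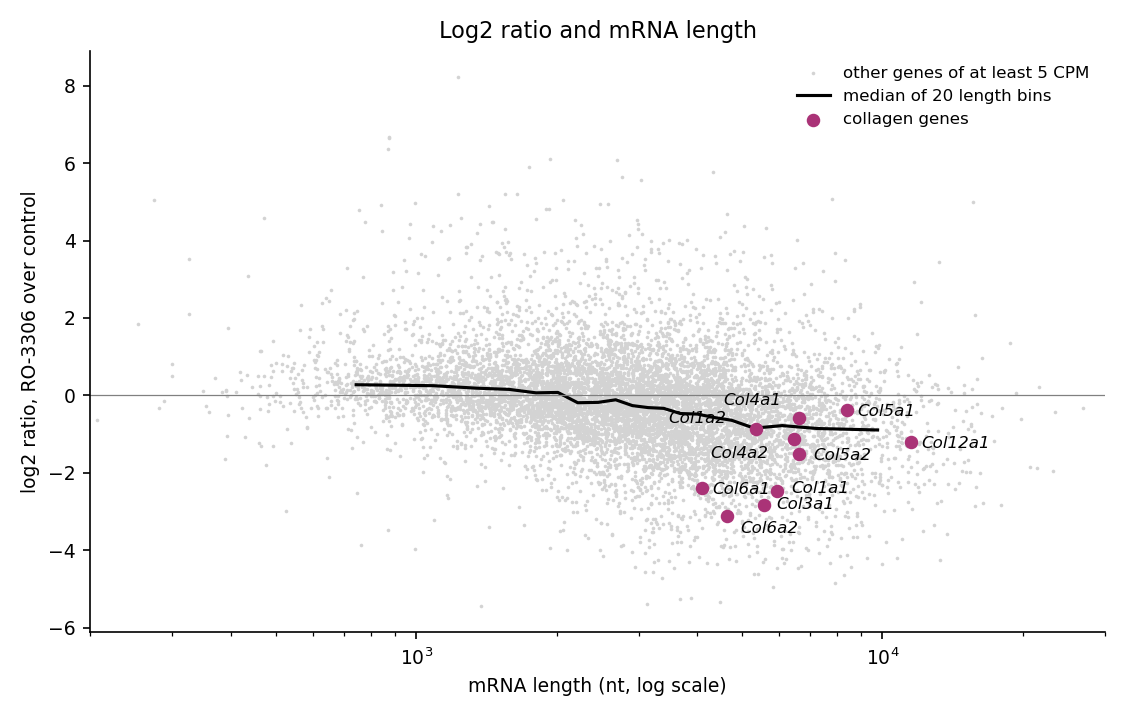
Summed log2 ratio of RO-3306 over control against mRNA length (nt, log scale) for genes of at least 5 CPM (grey), with the medians of 20 length bins (black line) and the 10 collagen genes, Col4a1 included although below 5 CPM. The line falls with length, and Col6a2, Col3a1, Col1a1 and Col6a1 lie farthest below it, with differences from their bin medians of -2.47, -1.99, -1.70 and -1.90.

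Chains of one molecule were compared by their level per kb of mRNA. In control cells Col1a1 stood at 120 CPM per kb and Col1a2 at 2.76 CPM per kb, a ratio of 43.6 (40.9 to 46.5). In RO-3306 cells the ratio was 15.1 (14 to 16.3). These intervals cover counting error only, while a single cell in each group, A1 and B11, held 99.9% and 64.0% of the Col1a2 counts. Leaving out B4 gave a control ratio of 34.7, and leaving out A11 gave an RO-3306 ratio of 14.3. Type I collagen is known mainly as a molecule of 2 alpha 1 chains and 1 alpha 2 chain, and a form made of alpha 1 chains alone also exists. Col1a1 exceeded Col1a2 per kb in every control cell and in 36 of the 37 RO-3306 cells.

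In the sums, Col1a1 and Col3a1 were near each other per kb in control, with a ratio of 1.11, and the ratio was 1.43 in RO-3306. Leaving out B4 gave 0.997 for control, and leaving out A11 gave 1.73 for RO-3306. Col1a1 exceeded Col3a1 per kb in 18 of 29 control and 28 of 37 RO-3306 cells, and 3 control and 8 RO-3306 cells had no Col3a1 count. For type VI the ratio of Col6a1 to Col6a2 was 1.41 and 2.49, but after thinning it was 2.23 and 1.67, so the order of the groups was not settled. Col6a3, which encodes the third chain of type VI, had 7 counts in control and 1 in RO-3306. Col5a1 stood at 0.180 of Col5a2 per kb in control and at 0.395 in RO-3306, and thinning gave 0.183 and 0.563. Without B4 the control ratio was 0.117, and without A11 the RO-3306 ratio was 0.607. The Col4a1 to Col4a2 ratio was 0.148 and 0.195, and it reversed its order between groups after thinning (0.274 and 0.111).

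**Figure D5:**
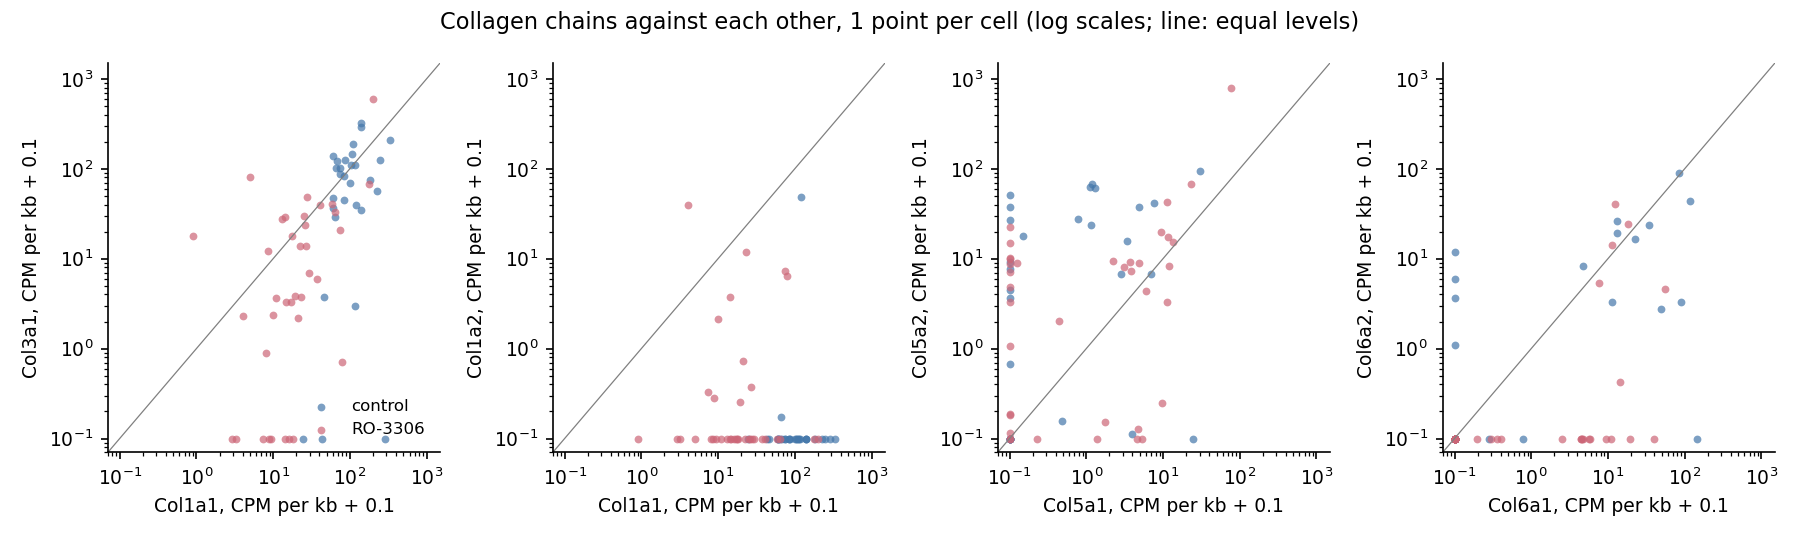
Levels of collagen chains per kb of mRNA in each kept cell, plus 0.1, on log scales, for Col3a1 and Col1a2 against Col1a1, Col5a2 against Col5a1, and Col6a2 against Col6a1; the line marks equal levels. Most cells lie on the floor of the Col1a2 axis (27 of 29 control and 26 of 37 RO-3306 cells). Col1a1 exceeds Col3a1 in 18 of 29 control and 28 of 37 RO-3306 cells, and 3 control and 8 RO-3306 cells lie on the floor of the Col3a1 axis.

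Within a group, collagen genes varied together only in part. In thinned cells, which share a treatment and a depth, Spearman's rho of Col1a1 with Col3a1 was 0.43 over 25 control cells and 0.47 over 34 RO-3306 cells. Col1a1 with Col5a2 gave 0.46 and 0.15, and Col5a1 with Col5a2 gave 0.45 and 0.24. The pair Col6a1 and Col6a2 had 0.60 and 0.59, with a count in 11 and 14 of the control cells and in 18 and 5 of the RO-3306 cells. The summed collagen level had a rho with the cell's mean mRNA length of 0.57 in control and 0.18 in RO-3306, and with the mitochondrial share of -0.49 and -0.12. Among 3697 genes of at least 50 CPM, the 5 most alike to summed collagen over cells were Larp4 (0.56 and 0.47 in control and RO-3306), Fbln2 (0.46 and 0.57), Rab9 (0.55 and 0.41), C1ra (0.42 and 0.54) and Hnrnpl (0.52 and 0.38). These 5 were picked as the highest of the 3697 by these same values, over 25 and 34 cells. The size of the values therefore carries no weight by itself, and a link with collagen was not tested.

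The lists of related genes below are to be read against all 9374 genes, of which 24.2% were at least 2-fold lower, and 41% among genes as long as the collagens. At least 2-fold higher were 1141 of the 9374. Of 33 genes that process collagen, 26 reached 5 CPM, 8 were at least 2-fold lower, none was at least 2-fold higher, and the median log2 ratio was -0.61, or -0.20 after the length bins. Lox, the lysyl oxidase that cross-links collagen, stood at 648 CPM (control) and 160 CPM (RO-3306) (log2 ratio -2.01), with cell medians of 564 and 165 CPM. Serpinh1, the Hsp47 chaperone, stood at 266 and 113 CPM (-1.23). The proteinase enhancer Pcolce, which helps to trim procollagen, stood at 380 and 192 CPM (-0.98), and P3h4, a partner of the lysyl hydroxylation machinery, at 131 and 67.9 CPM (-0.93). These 4 were picked for having 1 sign in every lettered set and under both weightings. Of the 26 genes 6 were lower and 1 was higher by that condition.

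Other matrix genes were mixed. In the interstitial matrix list, 14 of 26 genes reached 5 CPM, with 7 at least 2-fold lower and 2 at least 2-fold higher (median -0.99). Fmod, fibromodulin, which binds collagen fibrils, had a count in 10 control cells and 1 RO-3306 cell, at 64.5 and 0.571 CPM. The thrombospondin gene Thbs1 stood at 570 and 40.7 CPM (-3.77). Its log2 ratio ran from -5.42 to -0.09 over the lettered sets and was -2.68 with equal weights. The collagen-binding glycoprotein gene Sparc stood at 4032 and 1435 CPM (-1.49), while Ecm1 was higher in RO-3306, at 98.1 and 204 CPM (1.05). Of 15 basement membrane genes 7 reached 5 CPM and 4 were at least 2-fold lower (median -1.28, but -0.02 with equal weights). Only 4 of the 34 other collagen genes reached 5 CPM, namely Col16a1, Col18a1, Col4a5 and Col8a1, and 3 of them were at least 2-fold lower. None of the 4 had 1 sign in every lettered set and under both weightings. For Col4a5, 1 cell held 90.6% of the control counts, and the equal-weight ratio was -0.02.

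Among collagen receptors 4 of 11 genes reached 5 CPM and 2 were at least 2-fold lower. The collagen-binding receptor kinase Ddr1 stood at 52.2 and 13.6 CPM (-1.87). In the breakdown list 4 of 13 genes reached 5 CPM, with 1 at least 2-fold lower and 1 at least 2-fold higher, and the protease inhibitor Timp2 stood at 679 and 402 CPM (-0.76). Of 30 genes that regulate collagen genes, 23 reached 5 CPM, 16 were at least 2-fold lower and 1 at least 2-fold higher (median -1.31, or -0.61 after the length bins). They included the growth factor Tgfb2 at 69.8 and 19.3 CPM (-1.80) and the transcription factor Sp3 at 119 and 45.9 CPM (-1.35). The cell medians did not follow the sums for either gene. They were 0 (control) and 0.482 CPM (RO-3306) for Tgfb2, which had a count in 14 control and 19 RO-3306 cells, and 4.47 and 5.41 CPM for Sp3.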

How the data were processed

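The deposited files give 1 column of expected counts per library, made by the authors with featureCounts 2.0.3 per the file headers. Reads were counted over whole gene spans of GRCm39, and reads with several placements were split as fractions. The submitters' processing notes also name STAR and FastQC. No strand option is recorded, and by the tool's default reads over 2 gene spans are left out. Reads carry no molecular identifiers.

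Counts of kept cells were summed per treatment, scaled to CPM and compared as log2 ratios with a pseudocount of 1 CPM, which understates low genes. They were set against all genes averaging 5 CPM or more over the groups, and 2-fold was the limit for a count. Intervals are exact Poisson or binomial, at the 95% level, from counts rounded to whole numbers. mRNA lengths are those of the longest coding GENCODE M21 transcript of a symbol, with none of its coordinates used. Cells were thinned to 639000 reads (25 control, 34 RO-3306) for shares, correlations and alternative ratios. Cells with fewer reads, A11 among them, were left out, and thinned cells all had the same weight.

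The collagen genes and the lists were chosen with earlier results of these data known. All 10 were described. From each list, genes of at least 20 CPM with 1 sign in all 4 sets and under both weightings were named, at most 4 a list, and the 5 genes most alike over cells. Scaling alternatives used edgeR 4.0.16 and DESeq2 1.42.0 in R 4.3.3, for factors only. The remaining steps ran in Python 3.11.15 (scipy 1.17.1, pandas 2.3.3, numpy 2.4.6). Of these, only the summed log2 ratios and the totals of thinned cells were checked on simulated data.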

Additional observations from a re-analysis of the deposited data

Results flagged for a closer look

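Libraries with fewer than 50000 counts or 1000 genes were left out of every comparison, yet some held collagen reads. The 11 RO-3306 libraries left out had 3690 CPM of collagen (3580 to 3802), against 322 CPM (265 to 389) in the 19 control libraries left out. In RO-3306 the reads came mainly from D5, with 3241 collagen counts among 773537 counts in 943 genes, of which 87.3% were mitochondrial. Its largest members were Col5a2 with 1700 counts and Col1a1 with 982 counts. D3 held a further 992.5 counts, all of Col3a1. Among control libraries, C4 held 92 of the 110 counts, all of Col5a2. Without the top 2 libraries of each group the levels were 33.7 CPM (control) and 163 CPM (RO-3306). With all libraries included, the log2 ratio of summed collagen was -2.08.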

How the results depend on the processing

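The log2 ratio of summed collagen was below 0 under each of the 25 alternatives, which were planned unless named as added. It was -2.23 as reported, -1.17 with cells weighted equally, -1.99 as medians over cells, -2.17 after thinning, -2.02 with TMM, -1.99 with DESeq2 factors and -2.20 over nuclear-coded genes. It was -1.41 after the length bins, -2.27 with at least 500000 counts, -2.08 with all libraries and -2.40 without the top collagen cell of each group. Without lettered set A, B, C or D it was -2.81, -1.84, -2.13 and -2.11. Alternatives added after seeing the data gave -2.45 without A11, -1.88 with equal weights without A11, -0.60 with equal weights and length bins, and -1.22 with these and without A11. They also gave -2.02 without B4, -2.25 without B4 and A11, and -1.59 with length bins without A11.

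The median over the 10 genes was -1.35 as reported. In the same order it was -1.04 with equal weights, 0.0 as medians over cells (4 members being at 0 in both groups), -1.46 thinned, -1.14 with TMM, -1.12 with DESeq2 factors and -0.50 after the length bins. It was -1.29 with a pseudocount of 5, -1.19 with all libraries, -1.72 without the top cells, and -2.36, -1.91, -1.16 and -1.75 without sets A to D. The added alternatives gave -1.73 without A11, -0.47 with equal weights and length bins, -0.62 with these and without A11, -1.08 without B4, -1.45 without B4 and A11, and -0.84 with length bins without A11. The 7 genes at least 2-fold lower became 2 as medians over cells, 4 after the length bins, and 3 and 4 with equal weights and length bins, with and without A11.

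Thinning moved the Col1a1 to Col1a2 ratio to 57.2 in control and 12 in RO-3306, Col4a1 to Col4a2 to 0.274 and 0.111, Col5a1 to Col5a2 to 0.563 in RO-3306, and Col6a1 to Col6a2 to 2.23 and 1.67. Thinning also gave every cell the same weight and left out cells below 639000 reads, A11 among them. It therefore changed more than depth, and the part of each change in these shifts was not tested. Col1a1 was at least 2-fold lower in all 25 alternatives, and Col3a1, Col6a1 and Col6a2 in 24 each. No paired analysis was possible because the result comes from no test and title numbers only name cells. Few cells with a count limit Col1a2, Col4a1 and Col6a2, and a cell with no count may still hold the transcript.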
